A study of Mus musculus with 12 samples.

Results

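The genes described here are 8 manchette and tail assembly factors, Meig1, Spag16, Spef1, Spef2, Hook1, Rimbp3, Lrguk and Iqcg, listed by name for their known roles. All 8 were found among the 28643 gene symbols used, and all 8 passed the filter on low values in both assays. Round spermatids were sorted by flow cytometry from testes of 8-week-old mice, with cycloheximide present to hold ribosomes on mRNA. The control group was Igf2bp3+/- and the other group Igf2bp3-/-, in which a Cas9-made frameshift disrupts the gene, so that the controls also carry 1 disrupted copy. Per the study's methods, the Igf2bp3-/- males used had impaired fertility, so the group is a selected one, and spermatids were collected mouse by mouse. RNA-seq was made from total input, and RNC-seq from mRNAs in ribosome nascent-chain complexes that carried 4 or more ribosomes. Every genotype had 3 libraries of either kind, so 4 groups and 12 libraries were compared. Levels are given as FPKM, a read density per length of transcript and per library, so they can be set side by side between genes. The p-values measure the spread between these libraries.

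The manchette is a skirt of microtubules that surrounds the spermatid nucleus for a limited time while the head is shaped. Motors and intraflagellar transport proteins carry cargo along it towards the base of the growing tail, where the axoneme, with its central pair of microtubules and its dynein arms, is put together. Many of the mRNAs for these structures are made in round spermatids and held in ribonucleoprotein particles before they are translated, which is why the level in total input and the level on polysomes are both of interest. Igf2bp3 encodes an RNA-binding protein of germ cells.

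The genes encode parts of several successive structures. Hook1 encodes a microtubule-binding linker of the manchette, and Rimbp3 a manchette protein that binds HOOK1. Lrguk encodes a leucine-rich repeat and guanylate kinase-like protein of the manchette and basal body. Meig1 encodes a small protein that brings cargo including SPAG16 to the manchette. Spef2 encodes a large protein of the manchette and tail that binds IFT20. Spag16 encodes a WD-repeat protein of the central apparatus, and Spef1 a calponin-homology protein that bundles microtubules. Iqcg encodes a calmodulin-binding subunit of the nexin-dynein regulatory complex. On GRCm38 with the GENCODE M21 annotation, Meig1 lies at chr2:3409043-3422648 on the minus strand and has the shortest coding sequence of the 8, with 88 codons. Spag16 spans 898163 bases at chr1:69826970-70725132 on the plus strand, with a coding sequence of 639 codons. Spef1 lies at chr2:131170261-131187282 on the minus strand, with 234 codons, and Spef2 at chr15:9578193-9748868 on the minus strand, with 2076. Hook1 lies at chr4:95967240-96025413 on the plus strand, with 728 codons. Rimbp3 lies at chr16:17208603-17213982 on the plus strand, with 1606 codons in 1 exon. Lrguk lies at chr6:34029448-34134034 on the plus strand, with 1340 codons, and Iqcg at chr16:33012683-33056218 on the minus strand, with 419. Of the exonic bases of Iqcg, 48.1% are shared with Lrch3 on the opposite strand. Of those of Spef1, 12.7% are shared with Gm14232 and Cdc25b on the opposite strand and 0.728% with Cenpb on the same strand, and of those of Hook1, 3.81% are shared with 9530080O11Rik on the opposite strand. The sources used here do not state whether reads were counted by strand, so these 3 genes are uncertain over the shared bases.

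Factors of the RFX family drive many genes of cilia and sperm tails, and their binding element is built from half-sites that read GTTGCC or GTTGCT. Promoter windows of RefSeq on GRCm38.p6, from 250 bases before a transcript start to 50 after it, were found for 7 of the 8 genes, in 9 windows of 300 bases. Either half-site, searched on both strands, stood in 6 of the 9 windows and in 6 of the 7 genes, with no match in the window of Hook1. Of 32851 windows of all genes, 25.1% held it. The bases around 1 match in each gene are shown because the motif is what most of these promoters have in common. Each run of 30 bases is read on the strand of the gene, and capitals mark the half-site or its reverse complement.
Spag16: actaggcaacgcGTTGCCgtagtaactgcg
Meig1: ccgagcggcgtcacggcGTTGCTaggagac
Spef1: caagtagcgacgGTTGCTatggtttcggaa
Lrguk: gtcagtctcctaGGCAACgcgtataaacaa
Spef2: aagagcttccttAGCAACtggttgccctgg
Iqcg: cttgcgcgacgcGTTGCCatagctaccgat
They come from chr1:69826855-69826884 plus strand for Spag16, chr2:3419080-3419109 minus strand for Meig1, chr2:131174829-131174858 minus strand for Spef1, chr6:34029426-34029455 plus strand for Lrguk, chr15:9748851-9748880 minus strand for Spef2 and chr16:33056188-33056217 minus strand for Iqcg. In Spag16 and Spef2 a second match stands in lower case within the printed bases. The window of Lrguk also held the cyclic AMP response element TGACGTCA, the site of the CREB and CREM factors, which 1.79% of all windows held. It is shown because it stands beside the half-site of the same gene, at chr6:34029411-34029440 on the plus strand, with the element in capitals.
Lrguk: gccgcgggccaTGACGTCAgtctcctaggc
The motifs were chosen after the sequences had been looked at, and a match is a description of the letters only.

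The labelled cell type was checked against marker lists. Round spermatid markers, 6 genes with Acrv1 and Spaca1 among them, summed to between 730 and 860 FPKM in the Igf2bp3+/- RNA-seq libraries and between 923 and 1069 in the Igf2bp3-/- ones. These RNA-seq sums did not overlap, and all 6 genes were higher in Igf2bp3-/-, with a median log2 difference of 0.30. In RNC-seq the sums lay between 1103 and 1341 and between 1340 and 1585. The mRNAs of elongating spermatid proteins such as Prm1, which round spermatids already hold, summed to between 8895 and 11345 FPKM in RNA-seq of Igf2bp3+/- and between 9874 and 10036 in that of Igf2bp3-/-. Of 7 Leydig cell markers, led by Insl3, the sum in RNA-seq lay between 15.4 and 22.6 FPKM in Igf2bp3+/- and between 48.6 and 55.0 in Igf2bp3-/-, and in RNC-seq between 6.75 and 14.3 and between 51.5 and 103. Markers of macrophages and blood, 7 genes, also differed without overlap, from 7.15 to 7.53 FPKM in RNA-seq of Igf2bp3+/- and from 14.6 to 16.1 in that of Igf2bp3-/-. The sums of Sertoli cell markers, 7 genes, were low but did not overlap either. They ran from 2.94 to 3.44 FPKM in RNA-seq of Igf2bp3+/- and from 3.57 to 4.03 in that of Igf2bp3-/-. In RNC-seq they ran from 1.42 to 2.66 and from 2.79 to 3.44. Gene by gene, of the 6 Sertoli markers tested in RNA-seq, 3 were higher and 3 lower in Igf2bp3-/-. Amhr2 had means of 1.17 FPKM in Igf2bp3+/- and 1.75 in Igf2bp3-/-, and Rhox5 0.203 and 0.130. In RNC-seq all 4 tested were higher. Spermatocyte markers, 7 genes, summed to between 82.4 and 105 FPKM in RNA-seq of Igf2bp3+/- and between 96.2 and 122 in that of Igf2bp3-/-. In RNC-seq they overlapped too, at 106 to 204 and 87.1 to 152. Sums of spermatogonia markers (6 genes) and peritubular markers (5 genes) stayed below 5 FPKM. These sums overlapped between genotypes in RNA-seq and were higher without overlap in RNC-seq of Igf2bp3-/-. Gene by gene in RNC-seq, of the 4 spermatogonia markers tested, 2 were higher and 2 lower in Igf2bp3-/-. Gfra1, with the largest values, had means of 2.43 FPKM in Igf2bp3+/- and 2.91 in Igf2bp3-/-, and Stra8 0.245 and 0.030. All 3 peritubular markers tested in RNC-seq were higher. The part of these other cells, or of the shift in round spermatid markers, in the values below was not tested. In sorted bulk samples fewer cells of a type and less RNA per cell cannot be told apart. Igf2bp3 itself was measured at 38.2, 38.6 and 33.4 FPKM in RNA-seq of Igf2bp3+/- and at 31.7, 32.5 and 31.4 in that of Igf2bp3-/-, and a frameshift need not lower the mRNA, so its level does not check the labels.

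In total input the genes fell into 3 tiers. Meig1 stood alone at the top, with 1901, 1818 and 1397 FPKM in RNA-seq replicates 1, 2 and 3 of Igf2bp3+/- and 2112, 2038 and 2252 in those of Igf2bp3-/-. On polysomes Meig1 read 3756, 3057 and 2987 FPKM in Igf2bp3+/- and 4132, 2214 and 3971 in Igf2bp3-/-. Its mean ranked 10 of 20494 genes above 0.1 FPKM in the RNA-seq of Igf2bp3+/- and 9 of 20279 in that of Igf2bp3-/-, and 8 in the RNC-seq of either genotype.

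Rimbp3, Spag16 and Hook1 made up the middle tier. Rimbp3 read 107.1, 116.1 and 118.1 FPKM in RNA-seq of Igf2bp3+/-, Spag16 104.7, 103.9 and 94.9, and Hook1 101.1, 100.3 and 97.6. The mean of Meig1 was 15.0 times that of Rimbp3, which in turn lay above every value of Spag16, while the ranges of Spag16 and Hook1 overlapped. Iqcg followed with 32.2, 31.8 and 28.9 FPKM, and the mean of Hook1 was 3.22 times its mean. Spef2 read 20.7, 20.9 and 20.4 FPKM, Lrguk 18.0, 17.6 and 18.8, and Spef1 17.8, 15.3 and 17.7. The ranges of neighbours in this lower tier did not overlap, except those of Lrguk and Spef1. In RNA-seq of Igf2bp3-/- Spag16 and Rimbp3 had almost equal means, 114.9 ± 11.3 and 114.5 ± 8.70 FPKM (SD, n = 3), and the order was otherwise the same. On polysomes the mean of Meig1 was 27.8 times that of Spag16, the next gene, in Igf2bp3+/- and 32.8 times in Igf2bp3-/-. Spag16 lay above Rimbp3 by 2.06 times without overlap in Igf2bp3+/-, and Spef2 had the lowest mean of the 8 in either genotype, below Spef1 and Lrguk, which it exceeded in total input.

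**Figure D1:**
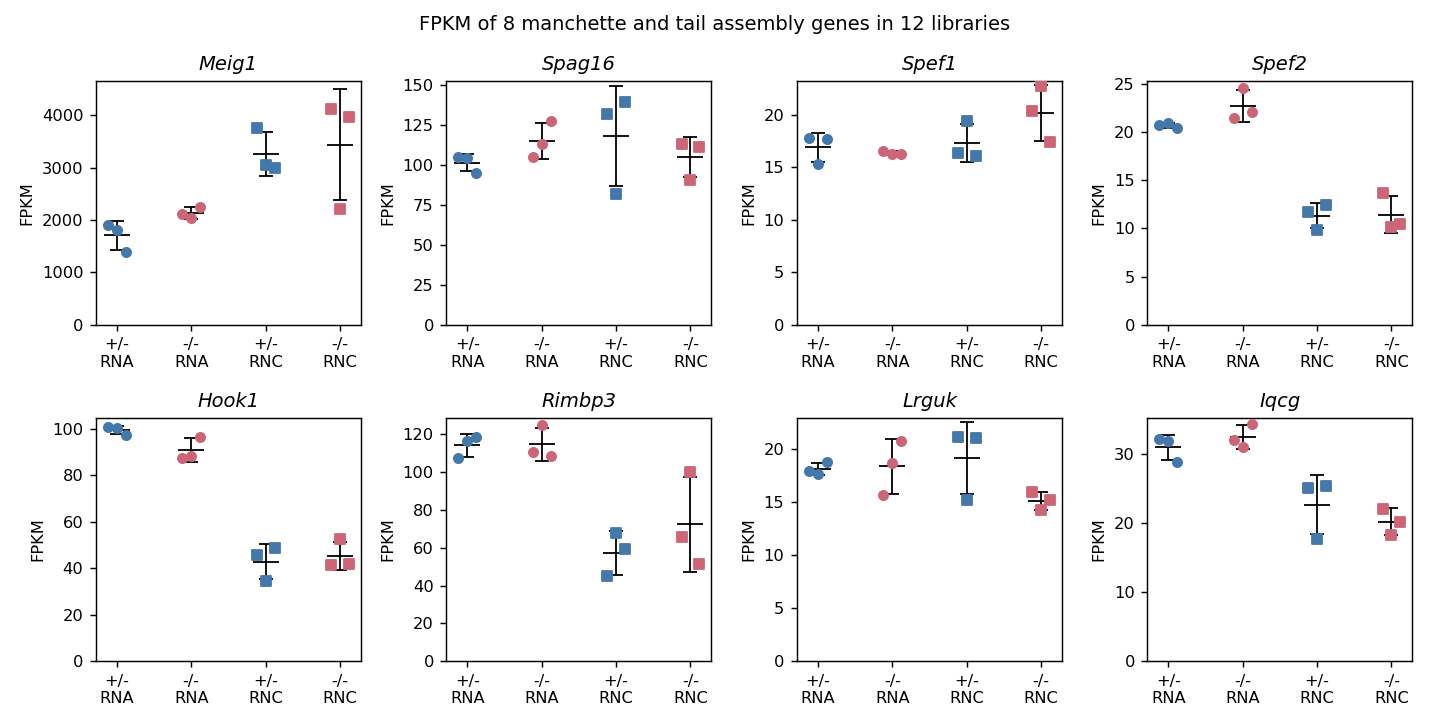
FPKM (vertical axes, each from 0) of the 8 genes in the 12 libraries, by genotype and assay, with circles for RNA-seq, squares for RNC-seq, and bars for the mean and SD of 3 replicates. Hook1, Rimbp3, Spef2 and Iqcg lie lower in RNC-seq than in RNA-seq in both genotypes without overlap, whereas Meig1 lies higher, with 1 Igf2bp3-/- RNC-seq library, at 2214 FPKM, within the RNA-seq range.

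The first comparison asked whether the abundance of these mRNAs in round spermatids differed between the genotypes. None of the 8 passed the limit of 0.05 on the adjusted p in limma, against 0.256% of the 20352 genes tested. With an unadjusted p under 0.05 there was 1 of 8, Meig1, against 15.7% of all genes. The median difference of the 8, Igf2bp3-/- minus Igf2bp3+/-, was 0.04 on the log2 scale and that of all genes 0.05.

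The difference of Meig1 was the largest in size with FPKM as deposited, 2134 ± 109 FPKM in Igf2bp3-/- against 1705 ± 270 in Igf2bp3+/- (SD, n = 3), or 0.33 ± 0.13 on the log2 scale (SE; limma adjusted p = 0.268). All 3 Igf2bp3-/- libraries lay above all 3 Igf2bp3+/- libraries. It was 0.20 without Igf2bp3+/- RNA-seq replicate 3, the lowest library, 0.12 under quantile normalization and 0.21 with each library rescaled without CT010467.1, the transcript with the largest share of all FPKM. Under both scalings Hook1 differed by more, at -0.27 and -0.26. Quantile normalization sets a value by rank alone, which leaves little room for a difference of Meig1, whose means ranked 10 and 9 in RNA-seq. The Igf2bp3-/- libraries of Spag16, at 104.8, 112.7 and 127.1 FPKM, also lay above the Igf2bp3+/- ones, although only just, with 104.84 as the lowest against 104.72 as the highest and a limma adjusted p of 0.402. Its difference of 0.18 was 0.10 without Igf2bp3-/- RNA-seq replicate 3 and 0.039 and 0.058 under the same scalings. Spef2, at 21.5, 24.6 and 22.1 FPKM in Igf2bp3-/-, differed by 0.13 without overlap, with a limma adjusted p of 0.511, and by 0.076 without Igf2bp3-/- RNA-seq replicate 2 and 0.051 and 0.011 under those scalings. Hook1 was the only gene of the 8 with every Igf2bp3-/- library below every Igf2bp3+/- library, at 87.3, 88.3 and 96.7 FPKM, a log2 difference of -0.14 (limma adjusted p = 0.442). Groups that do not overlap were thus seen for 4 of 8, against 22.7% of all genes tested, 14.1% higher and 8.68% lower.

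For the other 4 genes the libraries of the genotypes overlapped in RNA-seq. In Igf2bp3-/-, Spef1 read 16.6, 16.3 and 16.3 FPKM, Rimbp3 110.6, 124.4 and 108.4, Lrguk 15.7, 18.7 and 20.8, and Iqcg 31.9, 31.0 and 34.4. Their differences ran from -0.04 for Spef1 to 0.07 for Iqcg on the log2 scale, and the direction changed with the scaling for Rimbp3, Lrguk and Iqcg. The 95% intervals limit any change of these 4 to between -0.27 and 0.28.

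The second comparison concerned the level on polysomes. In RNC-seq 0 of 8 passed in limma, against 0.115% of 19051 genes, 0 of 8 had an unadjusted p under 0.05, against 6.48%, and 0 of 8 separated the genotypes without overlap, against 11.3%. Lrguk stood at one end, at 21.1, 15.2 and 21.1 FPKM in Igf2bp3+/- and 16.0, 14.2 and 15.2 in Igf2bp3-/-, a log2 difference of -0.32 (95% interval -0.80 to 0.15). Rimbp3 stood at the other, at 44.9, 67.4 and 59.0 FPKM in Igf2bp3+/- and 65.7, 99.97 and 51.3 in Igf2bp3-/-, a log2 difference of 0.30 (95% interval -0.27 to 0.88). For both, the libraries of the genotypes overlapped, for Lrguk only through Igf2bp3+/- RNC-seq replicate 2, at 15.2 FPKM. The value of Rimbp3 rested on single libraries, at 0.043 without Igf2bp3-/- RNC-seq replicate 2, 0.14 without Igf2bp3+/- RNC-seq replicate 1 and 0.52 without Igf2bp3-/- RNC-seq replicate 3. With each library rescaled without CT010467.1 it was 0.19. Without Igf2bp3-/- RNC-seq replicate 2, Spef2, at 0.087, Spef1, at 0.13, and Meig1, at 0.32, lay above Rimbp3. That of Lrguk ran from -0.48 to -0.24 when 1 library was left out.

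The other 6 genes overlapped between the genotypes too. Spag16 read 131.8, 81.8 and 139.2 FPKM in Igf2bp3+/- and 112.7, 90.5 and 111.0 in Igf2bp3-/-. Spef1 read 16.4, 19.4 and 16.1 FPKM in Igf2bp3+/- and 20.4, 22.7 and 17.4 in Igf2bp3-/-, a log2 difference of 0.22 with overlap. The transport-linked Spef2, at 11.7, 9.86 and 12.4 FPKM against 13.6, 10.2 and 10.5, had nearly equal means in the genotypes. Hook1, at 45.7, 34.5 and 48.7 FPKM against 41.5, 52.5 and 42.0, and the axonemal Iqcg, at 25.0, 17.7 and 25.3 against 22.1, 18.2 and 20.2, overlapped as well. The interval of Meig1 ran from -0.54 to 0.60, and its difference was 0.03 with all libraries and 0.32 without Igf2bp3-/- RNC-seq replicate 2. The fitted direction changed with the scaling for Meig1, Spef2 and Hook1.

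**Figure D2:**
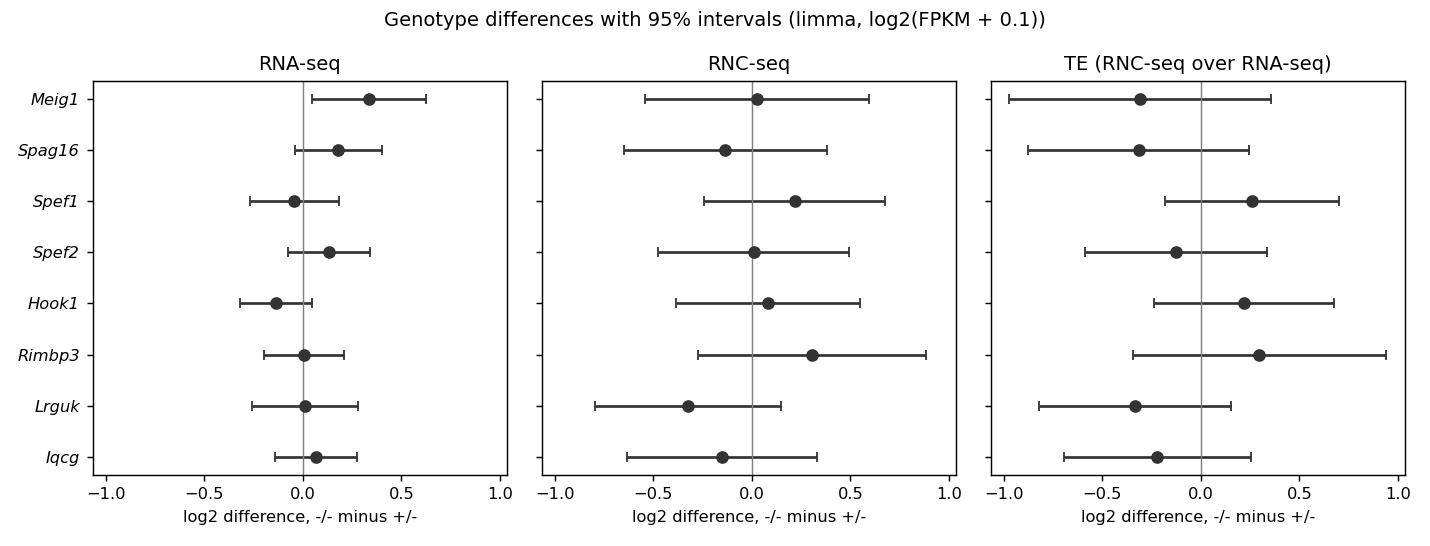
Log2 difference between genotypes, Igf2bp3-/- minus Igf2bp3+/- (horizontal axis), for each of the 8 genes in RNA-seq, RNC-seq and TE, with points for the limma estimate and bars for its 95% interval. Every interval includes 0 except that of Meig1 in RNA-seq, from 0.05 to 0.62, which did not pass after adjustment.

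Translational efficiency (TE) is the RNC-seq level over the RNA-seq level, as the study took it, and its difference between genotypes was tested as the interaction of genotype and assay over the 12 libraries. In limma 0 of 8 passed, against 0.00543% of 18414 genes, and 0 of 8 had an unadjusted p under 0.05, against 7.13%. The ratio of mean TE, Igf2bp3-/- over Igf2bp3+/-, ran from 0.780 for Lrguk to 1.26 for Rimbp3, and 0 of 8 went past 1.5-fold, against 29.3% of 19433 genes. That share takes in genes with means down to 0.1 FPKM, whereas the lowest group mean of the 8 was 11.3 FPKM. A share among genes of like level was not computed, so the 8 cannot be called steadier than other genes from these counts. The fitted log2 differences were -0.33 for Lrguk, -0.32 for Spag16, -0.31 for Meig1, -0.22 for Iqcg and -0.12 for Spef2. They were 0.30 for Rimbp3, 0.26 for Spef1 and 0.22 for Hook1. Several of these sizes rested on single libraries. Without Igf2bp3-/- RNC-seq replicate 2 the value was -0.017 for Meig1, 0.036 for Rimbp3, -0.046 for Spef2, 0.11 for Hook1 and 0.17 for Spef1. Without Igf2bp3+/- RNC-seq replicate 2 it was -0.56 for Spag16, -0.39 for Iqcg, -0.22 for Spef2 and 0.070 for Hook1. Without Igf2bp3+/- RNC-seq replicate 3 it was -0.17 for Spag16, -0.13 for Iqcg and -0.056 for Spef2. Meig1 was also at -0.17 without Igf2bp3+/- RNA-seq replicate 3, -0.20 without Igf2bp3+/- RNC-seq replicate 1 and -0.47 without Igf2bp3-/- RNC-seq replicate 1. For Spef2 it was -0.26 without Igf2bp3-/- RNC-seq replicate 1 and -0.069 without replicate 3 of that group, and leaving out Igf2bp3-/- RNA-seq replicate 2 gave -0.067. Rimbp3 was at 0.52 without Igf2bp3-/- RNC-seq replicate 3, and without Igf2bp3+/- RNC-seq replicate 1 it was at 0.13 and Iqcg at -0.14. Only the value of Lrguk, from -0.49 to -0.24 over these fits, moved by no more than 1.5 times under any alternative run. The median of the 8 was -0.17 and that of all genes 0.06. The 95% intervals were wide, from -0.97 to 0.36 for Meig1 and from -0.35 to 0.94 for Rimbp3, so differences of TE within these intervals were not excluded.

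Polysome loading, the log2 TE within a genotype, spread the 8 genes from -1.23 for Hook1 to 0.94 for Meig1 in Igf2bp3+/-, while their differences between genotypes in TE ran from -0.33 to 0.30. In Igf2bp3+/- 1 of 8 was higher on polysomes than in total input and 4 of 8 were lower in limma, against 18.6% and 25.2% of all genes. In Igf2bp3-/- the counts were again 1 higher and 4 lower, against 12.5% and 14%, and the genes were the same, Meig1 higher and Hook1, Rimbp3, Spef2 and Iqcg lower. FPKM is scaled within each library, so higher or lower on polysomes is relative to the other mRNAs of that library. It does not give the amount of an mRNA on and off polysomes. Both genotypes were tested in a single fit with a shared estimate of the spread. Per the study's methods, input and polysomes were parts of a shared extract, and the tests of loading and TE treated the libraries as independent, since the labels do not say which RNA-seq and RNC-seq libraries share an extract.

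The manchette linker Hook1 had the lowest loading in Igf2bp3+/-, -1.23 ± 0.15 on the log2 scale (SE; limma adjusted p = 4.61e-05), with a mean of 43.0 FPKM on polysomes against 99.7 in total input. In Igf2bp3-/- its loading was -1.01 ± 0.15 (limma adjusted p = 0.000523). Rimbp3, whose protein binds HOOK1, was loaded at -1.01 ± 0.21 in Igf2bp3+/- (limma adjusted p = 0.00177) and at -0.71 ± 0.21 in Igf2bp3-/- (limma adjusted p = 0.0239). The latter did not pass without Igf2bp3-/- RNA-seq replicate 1 or 2 or without Igf2bp3-/- RNC-seq replicate 1 or 3, with values between -0.74 and -0.49 and adjusted p between 0.0579 and 0.104 in limma. Spef2 was loaded at -0.87 ± 0.15 (limma adjusted p = 0.000521) and -0.995 ± 0.15 (limma adjusted p = 0.000595) in the same order, with about 1.83 and 1.99 times as much FPKM in total input as on polysomes. For Hook1, Rimbp3 and Spef2 the RNA-seq and RNC-seq libraries did not overlap in either genotype.

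Iqcg was lower on polysomes by a smaller step, with a loading of -0.46 ± 0.16 in Igf2bp3+/- (limma adjusted p = 0.0272) and -0.68 ± 0.16 in Igf2bp3-/- (limma adjusted p = 0.00628). The first of these rested on single libraries. Without Igf2bp3+/- RNC-seq replicate 2 it was -0.30 (limma adjusted p = 0.101), and it also missed the limit without Igf2bp3+/- RNA-seq replicate 1 or 2 (limma adjusted p = 0.0819 and 0.0788). With each library centred on its median it was -0.30 as well (limma adjusted p = 0.0668). The exons shared with Lrch3 bear on all values of Iqcg.

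Meig1 was the only one of the 8 called higher on polysomes. Its loading was 0.94 ± 0.22 in Igf2bp3+/- (limma adjusted p = 0.00343), with no overlap between assays, and 0.64 ± 0.22 in Igf2bp3-/- (limma adjusted p = 0.0455), with 1 overlapping library. The Igf2bp3-/- value did not pass in 9 of the 12 fits that left out 1 library, with values between 0.48 and 0.67 and adjusted p between 0.0532 and 0.158. It also missed the limit with no filter on low FPKM (limma adjusted p = 0.1005) and with each library rescaled without CT010467.1, at 0.41 (limma adjusted p = 0.0851). The 3 fits that kept the call left out Igf2bp3-/- RNC-seq replicate 2, where Meig1 was lowest, Igf2bp3+/- RNC-seq replicate 1 or Igf2bp3+/- RNA-seq replicate 3. Under quantile normalization, which gives every library the same distribution of values, Meig1 was loaded at 0.19 in Igf2bp3+/- (limma adjusted p = 0.403) and 0.10 in Igf2bp3-/- (limma adjusted p = 0.697). That scaling sets a value by rank alone, and the mean of Meig1 ranked from 8 to 10 in the groups. It thus leaves little room for a step of Meig1 and cannot decide on its loading. In Igf2bp3+/- CT010467.1 made up 15.9% to 19.4% of a library in RNC-seq and 9.22% to 13.3% in RNA-seq, and in Igf2bp3-/- 8.14% to 14.6% and 5.68% to 9.25%.

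The remaining 3 genes, Spag16, Spef1 and Lrguk, did not pass in either genotype. Spag16 was loaded at 0.18 in Igf2bp3+/- (limma adjusted p = 0.462) and -0.14 in Igf2bp3-/- (limma adjusted p = 0.627). Without Igf2bp3+/- RNC-seq replicate 2, the library in which Spag16 read 81.8 FPKM, the first value was 0.42 and passed (limma adjusted p = 0.0328). Spef1 was loaded at 0.03 and 0.29 and Lrguk at 0.06 and -0.27. For Spef1 in Igf2bp3-/-, all 3 RNC-seq libraries lay above all 3 RNA-seq libraries, at 17.4 to 22.7 against 16.3 to 16.6 FPKM, with a limma adjusted p of 0.158. With each library rescaled without CT010467.1, Lrguk in Igf2bp3-/- was at -0.49 and passed (limma adjusted p = 0.0186).

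**Figure D3:**
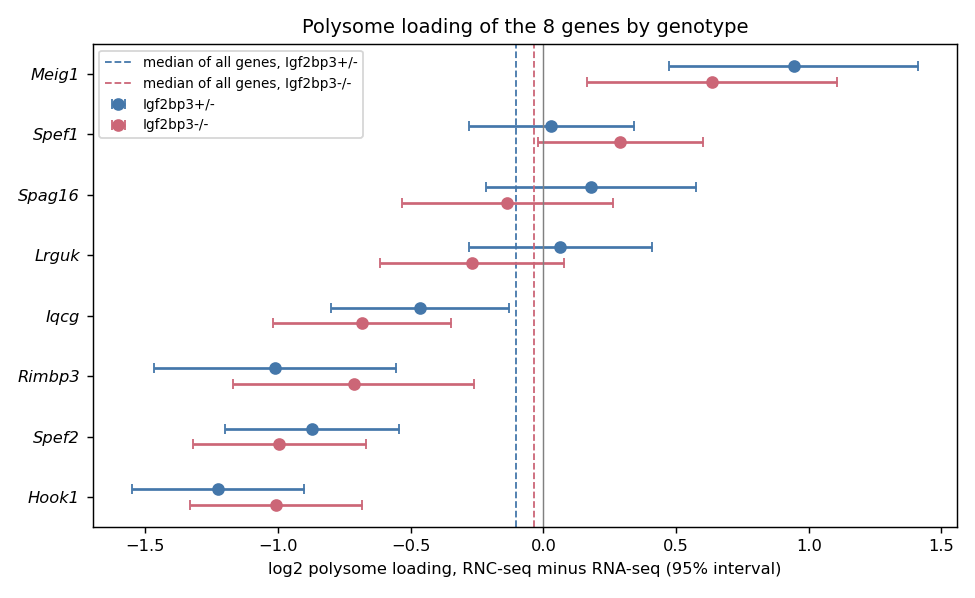
Log2 polysome loading (horizontal axis, RNC-seq minus RNA-seq) of the 8 genes in each genotype, ordered by their mean, with points for the limma estimate, bars for the 95% interval and dashed lines for the median of all genes tested, -0.10 in Igf2bp3+/- and -0.04 in Igf2bp3-/-. Hook1, Spef2, Rimbp3 and Iqcg lie left of 0 with their intervals, Meig1 lies right of it, and the intervals of Spag16, Spef1 and Lrguk include 0.

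Ranked by the mean of both genotypes the order of loading was Meig1, Spef1, Spag16, Lrguk, Iqcg, Rimbp3, Spef2 and Hook1. Each neighbouring pair was compared by an exact two-sided permutation test of the log2 ratio of the genes in the 6 RNC-seq against the 6 RNA-seq libraries, a ratio within a library that a common scaling of that library leaves as it is. Of the 7 pairs, 1 passed after adjustment. Lrguk was loaded above Iqcg by 0.47 on the log2 scale (exact permutation p = 0.00216, the smallest that 6 against 6 can give, adjusted p = 0.0152 over the 7 pairs), with no overlap between assays. The step from Meig1 to Spef1 was 0.63 (exact permutation p = 0.0216, adjusted p = 0.0758). For the other 5 pairs the exact adjusted p lay between 0.303 and 0.762, so neighbours within Spef1, Spag16 and Lrguk and within Iqcg, Rimbp3, Spef2 and Hook1 did not differ beyond their spread. The order itself came from these values.

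Loading tended to fall with coding length across the genes, with exceptions. Meig1, with the shortest coding sequence, had the highest loading, and Spef2 and Rimbp3, with the longest, were among the lowest. Other genes departed from this order. Hook1, with a coding length of 2184 bases, had the lowest loading in Igf2bp3+/-, -1.23. Lrguk, with 4020 bases, was loaded at 0.06 there, above Iqcg, with 1257 bases, at -0.46. Spearman's rho over the 8 genes was -0.60 in Igf2bp3+/- and -0.76 in Igf2bp3-/-. It was -0.61 and -0.54 over 48 related genes and -0.54 and -0.51 over 12814 protein-coding genes, so the sign was the same in each set. No test or interval was computed for rho, and 8 genes fix it only loosely. Genes are not independent replicates, and the loadings share their libraries. FPKM is divided by length, which cancels in the loading of a gene as far as both assays use the same length.

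**Figure D4:**
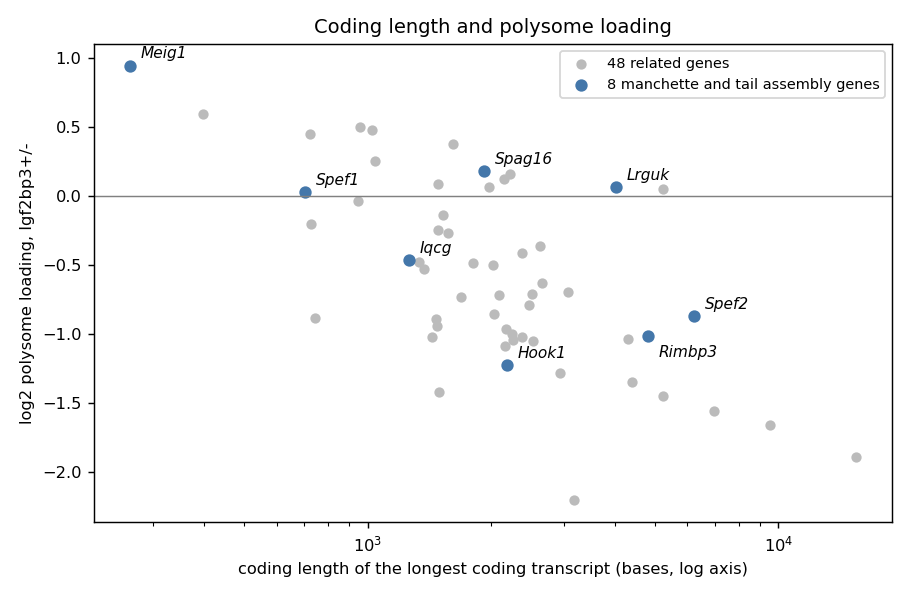
Log2 polysome loading in Igf2bp3+/- (vertical axis) against the coding length in bases of the longest coding transcript (horizontal log axis) for the 8 genes (blue, named) and 48 related genes (grey). Loading tends to fall with length, with a Spearman's rho of -0.60 over the 8 genes and -0.61 over the 48, and Hook1 and Lrguk depart from this.

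The replicate libraries did not move the 8 genes alike. In RNC-seq, replicate 2 of Igf2bp3+/- held the lowest value of its group for Spag16, Spef2, Hook1, Lrguk and Iqcg and the highest for Spef1 and Rimbp3. Replicate 2 of Igf2bp3-/- held the lowest for Meig1, Spag16, Spef2, Lrguk and Iqcg and the highest for Spef1, Hook1 and Rimbp3. The shared sets were thus Spag16, Spef2, Lrguk and Iqcg at the low end and Spef1 and Rimbp3 at the high end. The labels do not say that equal numbers mark a shared day or batch. Deviations from the group mean on polysomes correlated with Pearson's r of 0.989 between Lrguk and Iqcg, 0.983 between Spag16 and Iqcg and 0.982 between Spag16 and Lrguk over 6 libraries. The same pairs gave 0.227, 0.824 and 0.714 in RNA-seq. Between Spef1 and Rimbp3 it was 0.872, and between Meig1 and Rimbp3 it was -0.889. These are descriptions over libraries that share depth and preparation. The median gene above 1 FPKM lay 0.11 below its group mean (log2) in Igf2bp3+/- RNC-seq replicate 2 and 0.03 below it in Igf2bp3-/- RNC-seq replicate 2, and the part of the libraries in the pattern was not tested. The genes with a negative TE difference, given above, included the 4 that were low together, and those with a positive one included the 2 that were high together. The deviations are taken from the mean of each group, and a link of this pattern to the TE differences was not tested.

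**Figure D5:**
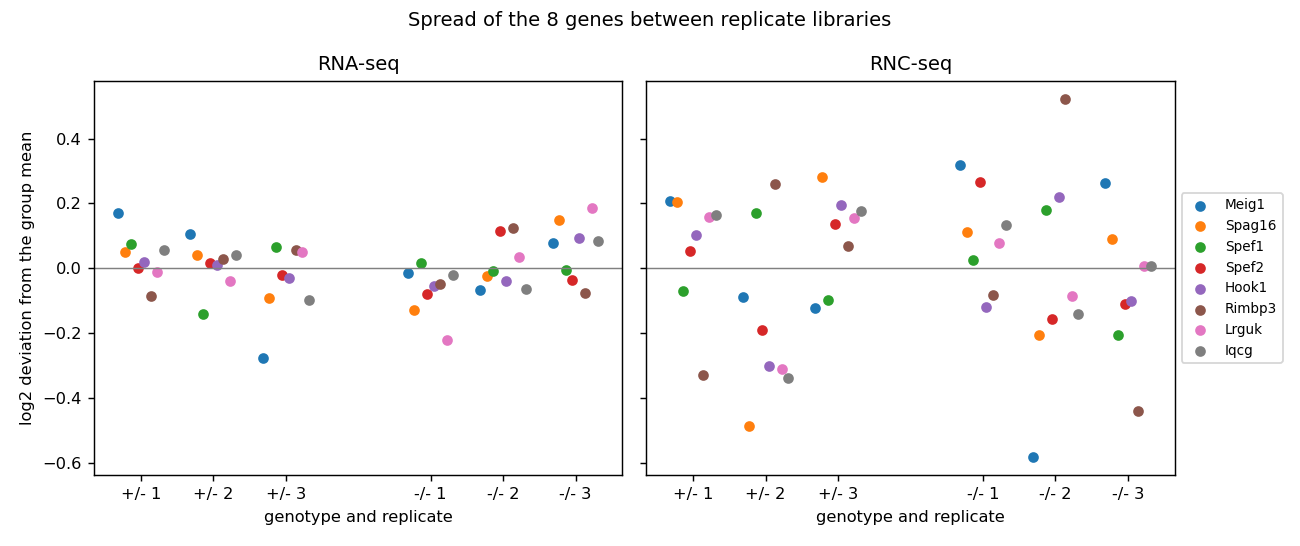
Log2 deviation of each gene from the mean of its own group (vertical axis) in each RNA-seq (left) and RNC-seq (right) library, with 1 colour per gene. The deviations run from -0.27 to 0.18 in RNA-seq and from -0.58 to 0.52 in RNC-seq, where replicate 2 of either genotype lay low for Spag16, Spef2, Lrguk and Iqcg and high for Rimbp3 and Spef1.

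Over all 12 libraries, the gene whose log2 profile was most like each of the 8 was sought among 11388 genes with a mean of at least 1 FPKM in both assays. The closest were Acvr2a for Hook1 (Pearson's r = 0.995), Hmgxb3 for Rimbp3 (r = 0.995), Arhgef6 for Iqcg (r = 0.989), Gm9789 for Meig1 (r = 0.988) and Sh3glb1 for Spef2 (r = 0.988). Nusap1 for Spag16 (r = 0.972), Hspb6 for Spef1 (r = 0.917) and Gm13910 for Lrguk (r = 0.907) followed. For none of the 8 was another of the 8 the closest. The 5 highest of these r belonged to the 5 genes whose loading passed, Meig1, Spef2, Hook1, Rimbp3 and Iqcg. The profiles span both assays, so the step between assays enters r, and this overlap is not a separate result.

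A list of 48 other genes of the same structures gave the surroundings of the 8. Of these, 0 passed in limma between genotypes in RNA-seq, RNC-seq or TE. Unadjusted p under 0.05 numbered 8 in RNA-seq, 5 in RNC-seq and 4 in TE, against the 15.7%, 6.48% and 7.13% of all genes given above. The smallest p in RNA-seq belonged to Cep131, a centrosomal protein also seen at the manchette, at -0.57 (limma adjusted p = 0.152), and to Sun5, a nuclear envelope protein that holds the tail to the head, at 0.43 (limma adjusted p = 0.163). In RNC-seq they belonged to Ccdc42, at 0.65 (limma adjusted p = 0.736), and to Odf1, an outer dense fibre protein of the tail, at 0.55 (limma adjusted p = 0.744). In TE they belonged to Odf1, at 0.75, and to Clip1, a protein of microtubule plus ends, at 0.44 (limma adjusted p = 0.686 for both).

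In polysome loading the median of the list was below that of all genes in both genotypes. In Igf2bp3+/-, 5 of 48 were higher and 30 were lower on polysomes, against 18.6% and 25.2% of all genes tested, with a median of -0.70 against -0.10 over all genes and -0.22 over the 8. In Igf2bp3-/-, 2 were higher and 22 lower, against 12.5% and 14% of all genes, with a median of -0.59 against -0.04 and -0.48. By structure, those lower in Igf2bp3+/- were 9 of 17 manchette microtubule genes, 7 of 9 genes of transport along the manchette, 5 of 7 of the central apparatus, 6 of 8 of the nexin-dynein complex, which holds Iqcg, and 3 of 7 of the head-tail coupling apparatus. The lowest were Cep131, at -2.20 (limma adjusted p = 1.53e-05), and Hydin, a very large central apparatus protein, at -1.89 (limma adjusted p = 1.52e-05). The highest were Ift20, a transport protein whose product binds SPEF2, at 0.59 (limma adjusted p = 0.0119), and Sun3, which ties the manchette to the nuclear envelope, at 0.50 (limma adjusted p = 0.0492). Sun3 lost its call in 10 of the 12 fits that left out 1 library, with adjusted p between 0.05002 and 0.210, and Ift20 lost its call without Igf2bp3+/- RNA-seq replicate 3, at 0.39 (limma adjusted p = 0.0655), and under the rescaling without CT010467.1, at 0.37 (limma adjusted p = 0.0673). Ift20 and Spef2, whose proteins bind each other, thus stood on opposite sides, at 0.59 and -0.87.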

How the data were processed

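The authors deposited 1 table of FPKM values, with a symbol and 12 library columns, those named WT being Igf2bp3+/- by the labels. Per the labels and methods, the steps were trimming (Trim Galore 0.6.6), alignment to GRCm38 (HISAT2) and quantification (StringTie 2.1.7). The annotation release and the use of strand are not given in the sources used here. The table holds no counts, so depth in reads is unknown and no counting interval was computed. Of 28668 symbols, 25 read as spreadsheet dates and were dropped. They held 0.0995% of all FPKM. The file gives no transcript-level values, so isoforms were not separated.

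The test was limma 3.58.1 (R 4.3.3) on log2(FPKM + 0.1), with an intensity trend, two-sided, among genes with a mean above 0.1 in the assay (in both assays for TE and loading). P-values were adjusted by Benjamini-Hochberg over all genes tested, with a limit of 0.05. On this scale the change of low genes is understated. RNA-seq and RNC-seq were fitted over 6 libraries each, and TE and loading over 12. Neighbours in loading order were compared with exact permutation tests (scipy 1.17.1). Exon overlaps used GENCODE M21, and near-identical copies were sought with blastn 2.17.0, keeping for each gene the largest stretch at 95% identity. This was 1.18% of the transcript for Spag16, with Olfr291, and none was found for Meig1, Spef2, Rimbp3 and Lrguk. For Spef1, Hook1 and Iqcg it fell on an overlapping gene named above, so any smaller match elsewhere was not listed. The members, gene lists and motifs were chosen with earlier results of these data known. Other genes named were Igf2bp3, the pathway genes with the 2 smallest p in each genotype comparison, those with the 2 highest and 2 lowest loadings among those called, and the closest profile to each member. Spag6l was matched to the symbol Spag6 and is uncertain, since the copies are nearly identical. Alternatives were other pseudocounts, filters and scalings, array weights, a replicate block, a fit over 12 libraries and leaving out each library. The labels name no batch.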

Additional observations from a re-analysis of the deposited data

How the results depend on the processing

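For the 8 genes, the counts called in RNA-seq, RNC-seq, TE and past 1.5-fold in TE were 0 under every alternative run. The count called for loading in Igf2bp3+/- stayed between 4 and 5. In Igf2bp3-/- it was 5 and ran from 3 to 5 when 1 library was left out, with Meig1 and Rimbp3 lost in the fits that gave 3. The TE differences of the 8 kept their sign in the 21 alternatives, but not their size. Beside the values without single libraries given above, Meig1 was at -0.089 under quantile normalization and -0.14 with array weights. With each library centred on its median, Spef1 was at 0.13, Spef2 at -0.25, Hook1 at 0.090, Rimbp3 at 0.17 and Iqcg at -0.35. The replicate numbers were not taken to pair libraries, since the labels do not say so, although input and polysomes shared extracts per the study's methods, and deviations of same-numbered libraries correlated between -0.105 and 0.262 within a genotype. With the replicate number as a block, 0, 0 and 0 of the 8 were called in RNA-seq, RNC-seq and TE and 5 and 5 in loading, while over all genes the RNA-seq count went from 52 to 4 and the RNC-seq count from 22 to 31.

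Some signs changed, and the cause was not tested. Under quantile normalization the RNA-seq difference was -0.14 for Rimbp3, -0.059 for Lrguk and -0.040 for Iqcg, and the RNC-seq difference -0.11 for Spef2 and -0.059 for Hook1. With each library rescaled without CT010467.1, RNA-seq gave -0.12 for Rimbp3, -0.11 for Lrguk and -0.055 for Iqcg, RNC-seq gave -0.091 for Meig1, -0.11 for Spef2 and -0.035 for Hook1, and loading in Igf2bp3+/- gave -0.045 for Spag16, -0.19 for Spef1, -0.16 for Lrguk and -0.18 for Igf2bp3. With each library centred on its median, RNC-seq gave -0.091 for Meig1, -0.11 for Spef2 and -0.036 for Hook1. With array weights, RNA-seq gave 0.0029 for Spef1, and RNC-seq -0.019 for Spef2 and -0.016 for Hook1. Leaving out 1 library gave RNA-seq ranges of -0.055 to 0.045 for Rimbp3 and -0.082 to 0.12 for Lrguk. In RNC-seq the ranges were -0.13 to 0.32 for Meig1, -0.38 to 0.0056 for Spag16, -0.12 to 0.087 for Spef2 and -0.067 to 0.18 for Hook1. In loading of Igf2bp3+/- they were -0.055 to 0.079 for Spef1, -0.015 to 0.22 for Lrguk and -0.046 to 0.18 for Igf2bp3. These scalings moved the median of all genes too. The rescaling moved it by -0.11 in both RNA-seq and RNC-seq and by -0.20 in loading of either genotype. Median centring moved it by -0.12 in RNC-seq, -0.13 in TE and 0.17 in loading of Igf2bp3+/-, and quantile normalization by -0.14 in RNC-seq and 0.14 in that loading. Over all genes, the number called ran from 9 to 38 in RNA-seq and from 0 to 20 in RNC-seq when 1 library was left out. It was 31 and 2 with no filter, 84 in RNA-seq with array weights and 48 in RNC-seq in the fit over 12 libraries.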
